A study of Mus musculus with 3 samples.

Results

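Natural killer (NK) lectin receptors and granzymes are the surface receptors and killing enzymes that NK cells and innate-like T cells have in common. They were examined in γδNKT cell thymocytes that carried 2, 1 or no intact copies of the gene for the transcription factor PLZF. The members are the genes of the Klr receptor families a to k and of the granzymes Gzma to Gzmn, together with Prf1, Ncr1, Nkg7, Cd160, Crtam and Serpinb9. Of the 24800 probe sets on the array, 43 name at least 1 of these genes. A probe set of its own measured 39 of the genes, and these are the 39 members described here. The other 4 probe sets are shared by several Ly49 (Klra) genes, and 9 further genes were measured only through them.

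The data are 3 Affymetrix Mouse Gene 1.0 ST arrays, 1 each for PLZF+/+, PLZF+/lu and PLZFlu/lu cells. The lu allele is luxoid, a point mutation of the PLZF gene Zbtb16. Zbtb16 intensities were 8796, 6143 and 2890 in that order, and a point-mutant transcript can still bind the probes, so they check the labels only in part. The labels give thymic γδNKT cells of female C57Bl/6 mice aged 3 to 4 weeks. By the study's methods all 3 genotypes were also Rag1−/− and carried a Vγ1Vδ6.4 T cell receptor transgene, and the sorted cells were CD4+CD8α− thymocytes, so a single transgenic receptor stands for the γδNKT lineage. With 1 array per genotype no difference has a replicate check, no test was run. Calling a gene past 2-fold is only a rule on the size of a difference. In sorted bulk cells, fewer cells of a type and less RNA per cell cannot be told apart.

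The Klr genes encode C-type lectin-like receptors, most of them clustered in the NK gene complex of mouse chromosome 6. The Ly49 receptors bind MHC class I molecules. CD94/NKG2 heterodimers bind a non-classical class I molecule, NKG2D binds stress-induced ligands, and receptors of the NKR-P1 (Klrb1) family bind the Clr proteins encoded by neighbouring Clec2 genes. Granzymes are serine proteases held in lytic granules and delivered into target cells through the pore protein perforin. The NK1.1 antigen, product of Klrb1c, is a classical marker of mature NKT cells.

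Probe sets of olfactory receptor genes, not known to be active in T cells, served as the background, and 95% of their values lay below an intensity of 108. Of the 39 members, 8 exceeded this level, and each of the 8 did so on all 3 arrays. Among all probe sets that name exactly 1 gene the share above the level was 61.6%, against 20.5% of the members. The 8 were the receptor genes Klrb1f, Klrd1, Cd160 and Crtam, the granule genes Gzma, Prf1 and Nkg7, and Serpinb9. The other 31 lay between 18.3 and 85.2, and for these no fold is given. A value below the level does not show that a transcript was absent, since no sample known to express these genes was on the same arrays.

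One member, Klrb1f, differed by more than 2-fold between PLZF+/+ and PLZFlu/lu thymocytes, and it was higher in PLZF+/+. That is 1 of 39 members, while over all probe sets 0.589% differed by more than 2-fold and 0.286% were more than 2-fold higher in PLZF+/+. At more than 1.5-fold the member count was again 1, with 1.77% of all probe sets past that size. The median log2 difference was 0.00 both for the 39 members and for all probe sets. In all, 9 members were higher in PLZF+/+ to any degree, 8 were lower and 22 were equal. Among all 24800 probe sets 6073 were higher, 4789 lower and 13938 equal, a similar split. In both sets the equal values outnumber all others, which by itself fixes both medians at 0. The values of 19 members were equal on all 3 arrays, or 48.7%, against 45.1% of all probe sets.

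**Figure D1:**
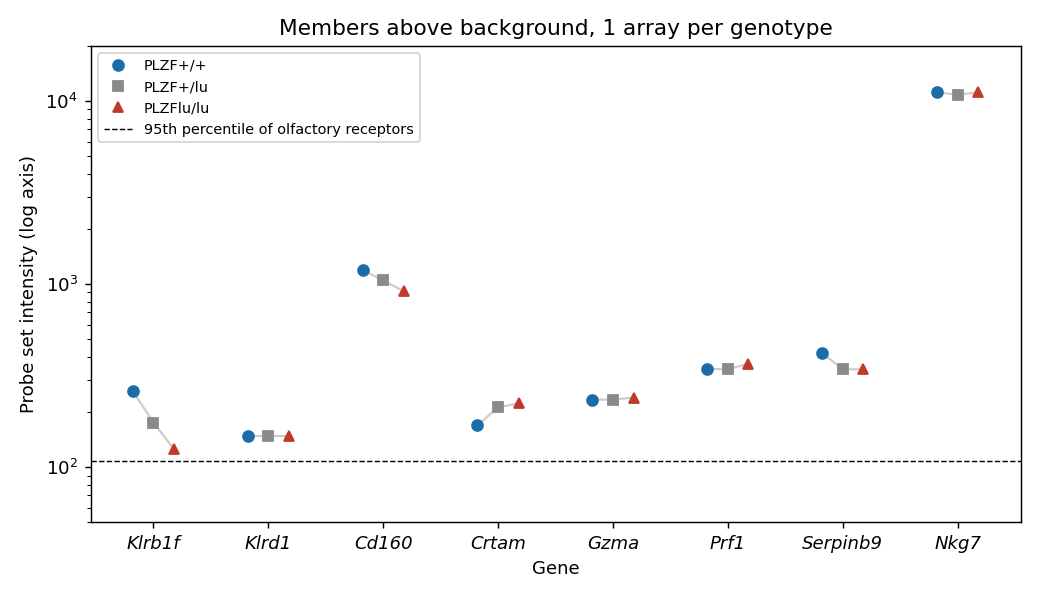
Probe set intensity on a log axis for the 8 members above background, one symbol for each array (PLZF+/+ circle, PLZF+/lu square, PLZFlu/lu triangle) and no error bars for lack of replicates. Klrb1f descends from 260 to 125, Cd160 descends by less, Crtam ascends, and Klrd1 has 1 value on all arrays. The dashed line is the level of 108.

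Klrb1f encodes NKR-P1F, a receptor for Clr proteins. Its intensity was 260 in PLZF+/+ cells, 175 in the heterozygote and 125 in PLZFlu/lu. The genotypes were therefore ordered by the number of intact PLZF copies, with both mutants dimmer than PLZF+/+ and all 3 values above the background level. The log2 difference between the outer genotypes was 1.06, or 2.08-fold, and 125 of the 24800 probe sets (0.504%) had a larger difference in either direction. It was divided almost evenly, with 0.57 between PLZF+/+ and PLZF+/lu and 0.49 between PLZF+/lu and PLZFlu/lu. The gene is dim, so the fold depends on where the background is set. Against the 99th percentile of the olfactory receptors, 178, which is above both mutant values, Klrb1f was at least 1.46-fold higher in PLZF+/+, and with 32 added to every intensity its log2 difference was 0.90, both under 2-fold.

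The other 5 members of the Klrb1 family lay below the background. Klrb1c, which encodes NK1.1, was at 29.5 on all 3 arrays, a value that 39 other probe sets also had in PLZF+/+. Klrb1a was at 23.4 and Klrb1b, the inhibitory receptor for Clr-b, at 35.7, again without a difference between arrays. Klrb1, which encodes NKR-P1G, was at 71.1 in PLZF+/+, 71.1 in PLZF+/lu, 68.5 in PLZFlu/lu, and the pseudogene Klrb1-ps1 at 45.8, 44.6 and 45.8. NK1.1 transcripts were thus not seen above background in any genotype, and within the family Klrb1f was the member with a level above it.

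The promoters of Klrb1f and of Klrb1c, another Klrb1 gene of the same complex, are printed to set the member past 2-fold beside the one that encodes NK1.1, and that of Cd160 because its intensities had the same order of genotypes. Each is the RefSeq sequence of build GRCm38.p6, from 250 bases before to 50 after a start site, read 5′ to 3′ along the gene. Klrb1f lies at chr6:129045651-129045950 on the plus strand, Klrb1c at chr6:128788592-128788891 on the minus strand, and the first of the 2 listed Cd160 start sites at chr3:96829302-96829601 on the minus strand. Capitals mark matches on either strand to the E-box CANNTG, the RUNX motif TGTGGT, the T-box motif GGTGTG and the AP-1 motif TGANTCA.
Klrb1f: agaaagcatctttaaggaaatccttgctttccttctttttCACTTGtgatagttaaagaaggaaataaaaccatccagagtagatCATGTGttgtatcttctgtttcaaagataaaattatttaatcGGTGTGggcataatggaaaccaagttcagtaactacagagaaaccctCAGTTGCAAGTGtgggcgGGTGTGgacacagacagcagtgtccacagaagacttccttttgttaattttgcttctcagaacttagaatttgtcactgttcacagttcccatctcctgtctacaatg
Klrb1c: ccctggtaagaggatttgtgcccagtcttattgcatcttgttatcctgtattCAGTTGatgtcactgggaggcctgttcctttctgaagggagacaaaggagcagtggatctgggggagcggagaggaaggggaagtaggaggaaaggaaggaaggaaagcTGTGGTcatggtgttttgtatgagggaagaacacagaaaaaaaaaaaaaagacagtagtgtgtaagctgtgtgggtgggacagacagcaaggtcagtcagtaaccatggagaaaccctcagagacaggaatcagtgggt
Cd160: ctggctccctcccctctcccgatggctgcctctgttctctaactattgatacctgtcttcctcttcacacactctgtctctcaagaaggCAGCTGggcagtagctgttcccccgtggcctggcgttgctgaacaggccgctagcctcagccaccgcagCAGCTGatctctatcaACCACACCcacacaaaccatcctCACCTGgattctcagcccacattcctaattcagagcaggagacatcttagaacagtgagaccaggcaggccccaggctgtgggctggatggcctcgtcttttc

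The Klrb1f promoter held 4 E-box matches and 2 T-box matches and no match to the RUNX or AP-1 motif. That of Klrb1c held 1 E-box match and 1 RUNX match. At the first Cd160 start site there were 3 E-box matches, and 1 RUNX match and 1 T-box match that overlap. At the second, not printed, there was 1 match each to the E-box, RUNX and T-box motifs, with no overlap. The promoter of Nkg7, a gene equal in PLZF+/+ and PLZFlu/lu, was also searched and is not printed. It held 2 E-box matches, 1 RUNX match and 1 T-box match, so a T-box match was also present in a gene without the order of Klrb1f. Of all 32851 promoters in the table, 72.3% held an E-box, 16.8% the RUNX motif, 19.0% the T-box motif and 7.81% the AP-1 motif. These matches describe the sequence and are not known binding sites. Promoters were listed for 34 of the 39 members.

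Of the remaining lectin receptors, Klrd1 alone exceeded the background. Klrd1 encodes CD94, the common partner chain of the NKG2 receptors, and stood at 149 on all 3 arrays, a value that 18 other probe sets also had in PLZF+/+. This is below 178, the 99th percentile of the olfactory receptors. Its partners were all below background, with Klrc1 (the inhibitory NKG2A) at 25.8 in PLZF+/+ and PLZF+/lu and at 30.0 in PLZFlu/lu. Klrc2 lay between 39.8 and 40.7 and Klrc3 between 18.3 and 19.5. Klrk1, which encodes the activating receptor NKG2D, was at 42.5 on every array, a value shared with 44 other probe sets in PLZF+/+. Of these receptor components, that of CD94 alone exceeded the level of 108.

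Ly49 genes with a probe set of their own numbered 6, and none came above the background. Klra17, Klra2, Klra5 and Klra6 had equal values on all arrays, between 23.2 and 34.6. Klra8, which encodes the activating receptor Ly49H, was at 31.96, 39.2 and 41.9, and Klra3 was at 52.6, 59.1 and 45.0. Both vary within the background range and in different orders of genotype. The 4 shared Ly49 probe sets lay between 25.4 and 32.2, and 3 of them were equal on all arrays. Ly49 genes are near-identical copies, so a probe set may capture transcripts of more than the gene it names. Klrg1, an inhibitory receptor of late effector cells, was at 37.6 and Klrg2 at 85.2 on all arrays. Klre1, Klrh1, Klri1 and Klri2 ranged from 18.8 to 34.9.

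Among the receptors outside the lectin family, Cd160 and Crtam were above background and Ncr1 was not. Cd160 encodes an immunoglobulin-like receptor that binds the TNF receptor family member HVEM. Its intensity was 1195 in PLZF+/+ cells, 1047 in the heterozygote and 912 in PLZFlu/lu, in the same order of genotypes as Klrb1f. The difference was smaller, 0.39 on the log2 scale or 1.31-fold, and 3.95% of all probe sets had a larger one. Crtam, an adhesion receptor of activated cytotoxic cells, ran the other way at 169, 212 and 223. It was 1.32-fold lower in PLZF+/+ than in PLZFlu/lu, and PLZF+/lu lay close to PLZFlu/lu. The PLZF+/+ value of Crtam was below 178, the 99th percentile of the olfactory receptors. Against that level its log2 difference was -0.33, in place of -0.40. Neither gene came near 2-fold. Ncr1, which encodes the NK cell receptor NKp46, was at 58.2 on all arrays.

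Granzyme transcripts were near background except for Gzma. Gzma, a tryptase-like granzyme, had an intensity of 234 in PLZF+/+ and PLZF+/lu and of 240 in PLZFlu/lu, a log2 difference of -0.04. Gzmb, the classical granzyme of cytotoxic T cells, was at 60.1, 58.6 and 58.6. Gzma thus had close to the same intensity in all genotypes, and Gzmb was below the background in each. The 7 genes of the Gzmb cluster, Gzmb to Gzmg and Gzmn, ranged from 28.2 to 60.1, with Gzmc, Gzmd and Gzmg equal on all arrays. Gzmk, on the chromosome of Gzma, was at 77.3 and Gzmm at 75.6 on every array.

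The granule genes that work with granzymes were all above background. Prf1, which encodes perforin, was at 343 in PLZF+/+ and PLZF+/lu and at 367 in PLZFlu/lu, a log2 difference of -0.10. Nkg7, which encodes a granule membrane protein, was bright on every array, at 11139, 10840 and 11139, and so was equal in PLZF+/+ and PLZFlu/lu. Serpinb9, the inhibitor that protects cytotoxic cells from their own granzyme B, was at 422 in PLZF+/+ and at 342 in both mutants. That is 1.23-fold higher in PLZF+/+, with no difference between the mutants. Perforin and Nkg7 transcripts were therefore detected in PLZFlu/lu cells at levels within 1.07-fold of those in PLZF+/+.

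**Figure D2:**
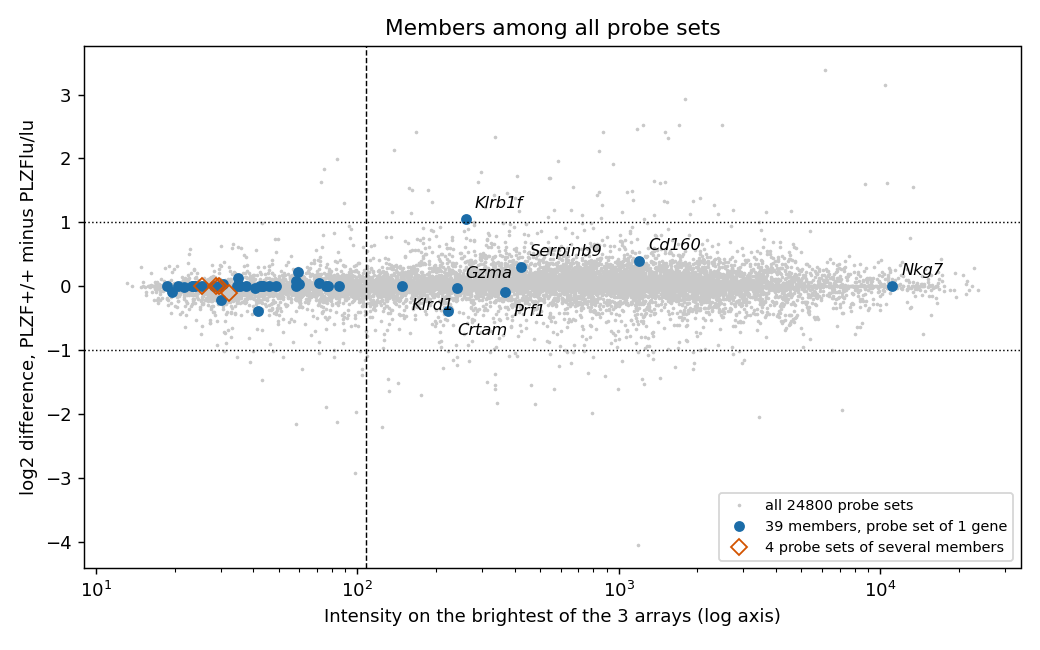
Intensity on the brightest of the 3 arrays (log axis) against the log2 difference between PLZF+/+ and PLZFlu/lu for all 24800 probe sets (grey), the 39 members with their own probe set (blue) and the 4 shared probe sets (orange diamonds). Dotted lines mark 2-fold and the dashed line the background level of 108. Klrb1f lies just past the upper dotted line, and most members lie to the left of the dashed line near 0.

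No member differed by more than 2-fold between PLZF+/+ and PLZF+/lu, where 0.234% of all probe sets did, or between PLZF+/lu and PLZFlu/lu, where 0.319% did. PLZF+/lu lay strictly between the other genotypes for 3 of the 8 members above background, Klrb1f, Cd160 and Crtam. It did so for 5 of all 39 members and for 2923 of all 24800 probe sets, which are similar shares. Taken over all members, this order was thus about as frequent as on the whole array. Taking PLZFlu/lu as 0 and PLZF+/+ as 1 on the log2 scale, PLZF+/lu stood at 0.46 for Klrb1f, at 0.51 for Cd160 and at 0.18 for Crtam. For Gzma and Prf1 the heterozygote equalled PLZF+/+, and for Serpinb9 it equalled PLZFlu/lu.

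The RefSeq annotation places 92 genes from Klrb1a to Klra2 on chromosome 6, of which 38 had a probe set of their own, 21 of them members. Among the 17 others, 6 were above background and none differed by more than 1.5-fold between the outer genotypes. These neighbours include ligands of the NKR-P1 receptors and were named after their values were seen. Clec2i, which encodes a ligand of NKR-P1F, was at 3350, 3554 and 4152 from PLZF+/+ to PLZFlu/lu, or 1.24-fold lower in PLZF+/+. Clec2d, which encodes Clr-b, was at 3095, 3056 and 4158, or 1.34-fold lower. The gene for NKR-P1F was thus higher in PLZF+/+ and that of its ligand slightly lower, the second by less than 1.5-fold. Clec2e, the next gene after Klrb1f, was below background, at 47.4, 47.4 and 47.9. Clec12a, an inhibitory receptor of myeloid cells, was at 175, 137 and 121, and so had the order of genotypes seen for Klrb1f.

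**Figure D3:**
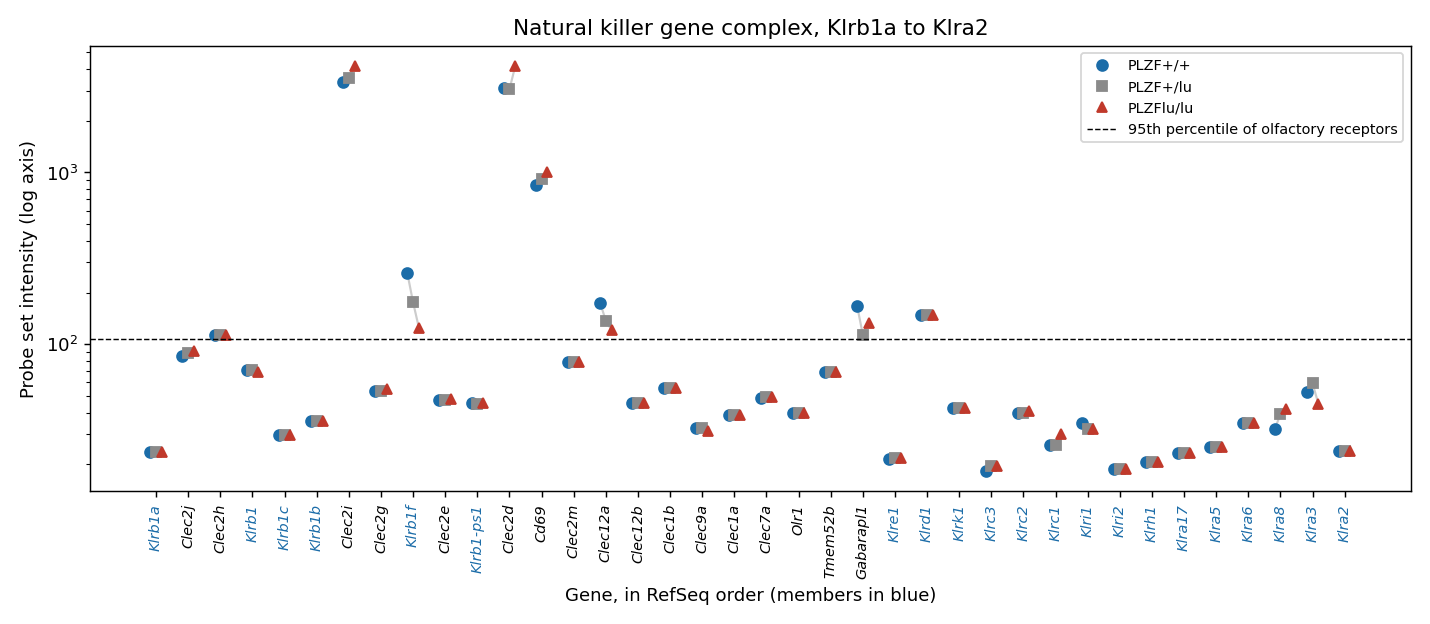
Probe set intensity (log axis) for the 38 genes of the NK gene complex with their own probe set, in RefSeq order, with members in blue type. Symbols are a circle for PLZF+/+, a square for PLZF+/lu and a triangle for PLZFlu/lu, and the dashed line is the level of 108. Klrb1f and Klrd1 are the members above the line, and levels of different genes are not comparable since each probe set has its own brightness.

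A further 75 genes of NK and cytotoxic function, in 5 lists, place the members among the genes that act with them. Past 2-fold were 3 of them on the side of PLZF+/+ and 1 on that of PLZFlu/lu, all from the list of 18 regulators, against 0.589% past 2-fold among all probe sets and 0.286% on the side of PLZF+/+. The median log2 difference of the 75 was 0.00. The regulators include the mutated gene Zbtb16, and the lists were chosen with earlier results of these data known, so the count is a description. The regulators past 2-fold were Maf at 5.33-fold, Zbtb16 itself at 3.04-fold and Id2, an inhibitor of E proteins, at 2.93-fold higher, and Stat4, the IL-12 signal transducer, at 2.46-fold lower in PLZF+/+. The regulators of the NK and cytotoxic programme Tbx21, Eomes and Prdm1 were below background on all arrays, with Tbx21 at 72.7 on each. Of the 18 regulators, Zbtb16 included, 11 were higher, 2 lower and 5 equal, with a median of 0.07. Stat5a, Bcl11b, Stat5b and Eomes, among the 11, differed by about 1.05-fold or less. Among all 24800 probe sets 6073 were higher, 4789 lower and 13938 equal, and no lean of the regulators was tested.

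None of the 16 measured adaptor and signalling genes passed 1.5-fold, and their median was 0.00. Over all probe sets only 1.77% passed 1.5-fold, so here and in the other short lists a count of 0 says little. Tyrobp, the adaptor DAP12 of activating Ly49 receptors, was at 146, 149 and 146, close to the background. Hcst, the adaptor DAP10 of NKG2D, was at 434, 359 and 399. Of 21 listed ligand genes, 10 had no probe set of their own, among them the class I genes H2-D1, H2-K1 and H2-T23. Of the 11 measured, 1 was higher in PLZF+/+, 7 were lower and 3 equal, with a median of -0.02. Cadm1, Clec2e, Cdh1 and Clec2g, among the 7, differed by 1.03-fold or less. Among all 24800 probe sets 6073 were higher, 4789 lower and 13938 equal, and no lean of the ligands was tested. The ligand gene higher in PLZF+/+ was Raet1d, at 33.6, 19.1 and 21.3, all below background. Tnfrsf14, which encodes HVEM, was at 1323, 1468 and 1592. Of the 19 lytic granule and death ligand genes, 17 were above background and none passed 1.5-fold. Rab27a, needed for granule release, had their largest difference, at 1686, 1251 and 1205 or 1.40-fold higher in PLZF+/+. Srgn, the granule proteoglycan serglycin, was at 8586, 7977 and 8065. Fasl was at 55.0 on all arrays. Among 11 other NK cell surface genes none passed 1.5-fold, and Cd96 came closest at 2927, 3731 and 4266, or 1.46-fold lower in PLZF+/+.

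**Figure D4:**
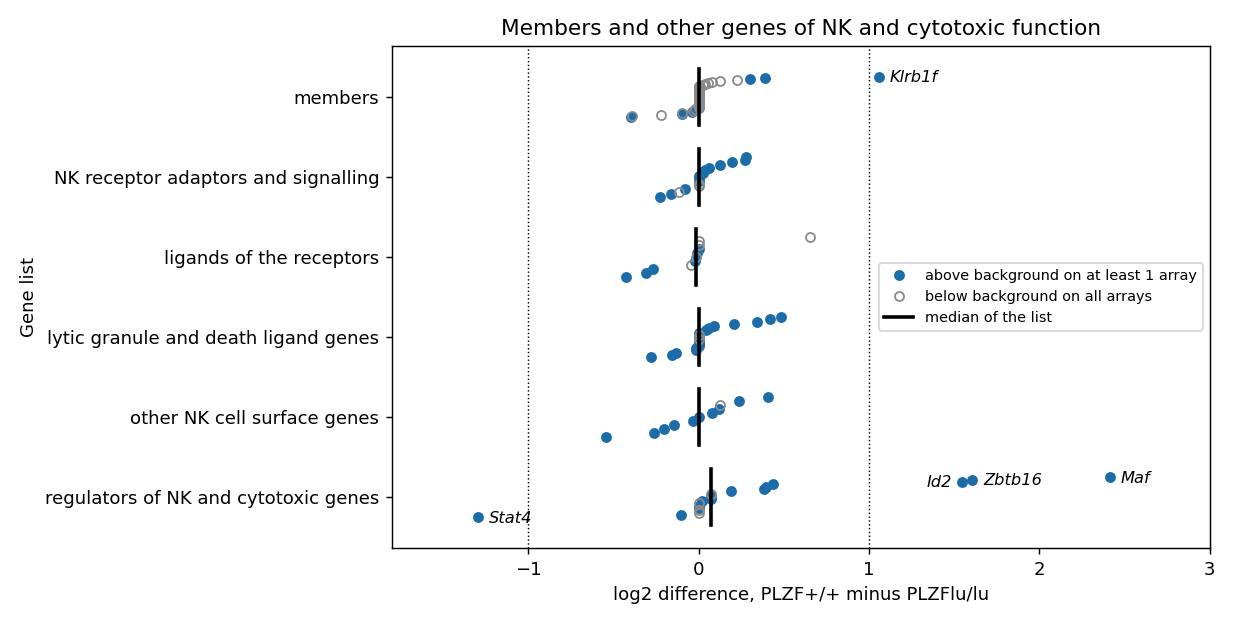
Each point is a gene, placed by its log2 difference between PLZF+/+ and PLZFlu/lu, for the 39 members and the 5 lists. Blue points are above background on at least 1 array, open grey points are below it on all, black bars are medians and dotted lines mark 2-fold. Klrb1f is the member past 2-fold, and the other genes past it are Maf, Zbtb16, Id2 and Stat4.

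The identity of the sorted cells was checked against marker genes. All 8 T cell markers were above background, with Cd3e at 10550, 11334 and 10599 from PLZF+/+ to PLZFlu/lu and Cd4 at 6401, 6208 and 7191. Of 6 NK cell markers, Ncr1, Eomes and Klra8 were below background, Tyrobp and Fcgr3 lay between 130 and 167, and Itga2, also used by activated T cells, was at 2300, 2010 and 2112. The summed level of the 6 was 2740, 2446 and 2581. Apart from Itga2, the NK cell markers were thus at or near background on each array, whereas the T cell markers were bright. Ncr1 and Klra8 are also members, so their low values repeat the results above and are not a separate check. Of 4 measured B cell markers 2 were above background, Cd79b at 1658, 1440 and 1406 and Pax5 at the level itself with 108, 109 and 108, while Cd79a and Ms4a1 were below it. Of 6 myeloid markers 3 were above it on at least 1 array, Cd68 at 386 on all arrays, Itgam at 164, 152 and 139 and Mpo at 99.1, 113 and 99.1, while Lyz2, Csf1r and Cd14 were below it. The summed level was 1838, 1622 and 1586 for the B cell markers and 837, 839 and 812 for the myeloid markers. Of 3 measured erythroid markers 1 was above background, Epor at 141, 157 and 141. Of 5 markers of thymic epithelium 2 were, Foxn1 at 113 on all arrays and Krt8 at 185, 185 and 173. All 3 erythroid markers and 4 of the 5 epithelial ones were equal in PLZF+/+ and PLZFlu/lu. So were 13938 of all 24800 probe sets, so equality says little about which cells were present.

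Among 6 measured markers of CD4+CD8+ thymocytes, both CD8 genes moved with genotype. Cd8b1 was at 1290, 2263 and 2958, or 2.29-fold lower in PLZF+/+ than in PLZFlu/lu, and Cd8a at 369, 519 and 601, or 1.63-fold lower. The other 4 were not ordered by genotype. Rag1 was at 229, 211 and 278 and Dntt at 162, 157 and 210, both lowest in the heterozygote, Ptcra was at 167 on all arrays and Rag2 was below background. By the study's methods the mice were Rag1−/−, and the source of the Rag1 signal was not tested. The summed level of the 6, Rag1 included, was 2267 in PLZF+/+ cells, 3366 in the heterozygote and 4265 in PLZFlu/lu, most of it from Cd8b1. The cells were sorted as CD4+CD8α−, and the purity of the sort was not tested here. Whether the CD8 transcripts bear on the values of Klrb1f, Cd160 and Crtam was not tested.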

How the data were processed

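Intensities of 24800 probe sets on 3 arrays, 1 per genotype, were used as deposited. The authors made these linear intensities in GenePattern (modules ExpressionFileCreator, MultiplotPreprocess, Multiplot) and left out the probe sets of normalization controls. The processing notes of the submitters name build mm8. For background correction, summarisation and scaling the sources used here give no method. Array medians were 159.7 to 161.8. The number of arrays limits the precision.

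Probe sets were assigned to genes through the platform annotation, in which 21065 name 1 gene, 1187 several and 2548 none, and all 39 member symbols matched the current RefSeq symbol (GRCm38.p6). Differences are log2 of deposited intensities, PLZF+/+ minus PLZFlu/lu unless stated, and values within 1e-06 count as equal. Genes of the lists with several probe sets are given by the brightest. Olfactory receptors had 1033 probe sets. Members above background are given with all 3 values. Of the 5 lists, genes past 1.5-fold and above background were to be named, at most 4 a list, and others named were chosen after their values were seen. The members and lists were chosen with earlier results of these data known. Alternatives were quantile normalization, median centring, cyclic loess, 32 added to each intensity, dim probe sets left out, shared probe sets included, a 1.5-fold threshold, PLZF+/+ replaced by its mean with PLZF+/lu, and a higher background level. Coordinates are those of RefSeq promoters only. 0 value columns were unmatched. Python 3.11.15, numpy 2.4.6, pandas 2.3.3, matplotlib 3.10.9, R 4.3.3 and limma 3.58.1 were used. The qPCR and flow cytometry of the study were not analysed here.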

Additional observations from a re-analysis of the deposited data

How the results depend on the processing

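The count of 1 member past 2-fold between PLZF+/+ and PLZFlu/lu held under quantile normalization, median centring and cyclic loess. It was also 1 without dim probe sets, with shared probe sets included and at 1.5-fold. Since Klrb1f is above background, these last settings could not lower the count. It fell to 0 with 32 added to each intensity, where the log2 difference of Klrb1f was 0.90, and to 0 when PLZF+/+ was replaced by its mean with PLZF+/lu, where it was 0.77. PLZF+/lu lies between the other genotypes for Klrb1f, so that mean had to shrink the difference. Raising values below the 99th percentile of the olfactory receptors to that level, chosen after seeing the data, also left 0 members, with 0.55 for Klrb1f. Under the 3 scalings Klrb1f stayed between 1.03 and 1.06. Klrb1f, Cd160 and Serpinb9 were higher and Crtam, Prf1 and Gzma lower in PLZF+/+ under each alternative run. Adding 32, raising low values, leaving out dim probe sets and the mean with PLZF+/lu could not reverse these directions. Median centring moved each difference by only -0.003. Klrd1 and Nkg7, equal in the outer genotypes as deposited, stayed within 0.05 of 0. Against the 99th percentile 7 members in place of 8 were above background, since Klrd1 was not. The median difference of the members stayed within 0.02 of 0, where the 22 members equal in the outer genotypes as deposited already placed it. The count among the other NK and cytotoxicity genes was 4 under every alternative run for it. No paired analysis was possible because each genotype has 1 array, and for the same reason no array could be left out.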

Other observations

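Many deposited values recur exactly. The PLZF+/+ array holds 15783 distinct values among 24800 probe sets, the PLZF+/lu array 16043 and the PLZFlu/lu array 15907. Among the members, the PLZF+/+ value of Klrd1 was also that of 18 other probe sets, that of Klra6 of 41, that of Gzmd of 39 and that of Prf1 of 7, while the values of Klrb1f, Cd160, Crtam, Serpinb9, Gzma and Nkg7 occurred once. Of the 31 members below background 18 were equal on all 3 arrays, and of the 8 above it 1 was. How this recurrence arose was not tested.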
